A study of Homo sapiens with 6 samples.

Results

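The platelet-derived growth factor (PDGF), fibroblast growth factor (FGF) and hepatocyte growth factor (HGF) genes of MRC5 lung fibroblasts were examined, namely the PDGF receptors *PDGFRA* and *PDGFRB*, the PDGF ligands *PDGFC* and *PDGFD*, the receptor *FGFR1*, the FGF ligands *FGF2*, *FGF5* and *FGF7*, the ligand *HGF* and its receptor *MET*. The genes were chosen by name as mesenchymal growth factors and receptors, with earlier results of these data known. They make up 10 of the 58676 gene identifiers counted. Each of the 10 genes passed the filter of at least 10 counts summed over the libraries, as did 19072 genes in all. MRC5 is a single line of human lung fibroblasts, and it was kept for 24 h in conditioned media (CM) from a human alveolar epithelial type II (ATII) line in which 4-hydroxytamoxifen (4-OHT) switches RAS signaling on. CM from control ATII cells was used for 3 libraries (control ATII CM). CM from ATII cells given 4-OHT was used for the other 3 libraries (4-OHT ATII CM). The comparison therefore asks how the fibroblasts' own growth factor and receptor mRNAs differ when the epithelial cells that made the CM had RAS activated. No fibroblasts given 4-OHT without epithelial CM were analysed here, so any 4-OHT that remained in the CM and the products of RAS-activated cells cannot be told apart.

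PDGFs, most FGFs and HGF are secreted proteins that bind receptor tyrosine kinases on the cell surface and signal through RAS-ERK and PI3K-AKT. PDGF receptors mark mesenchymal cells, in which they drive proliferation, migration and matrix production, and both are among the targets of a kinase inhibitor given in pulmonary fibrosis. FGF7 and HGF are made by fibroblasts and act mainly on epithelial cells, whereas FGF2 also acts on the fibroblasts that make it. PDGFC, PDGFD and HGF are secreted in latent forms that proteases must cut.

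RNA-Seq gave between 17691849 and 26389449 counts per library, with a median of 22273931. The 10 genes took 0.278% to 0.306% of the counts of a library, and a single gene had between 726 (*MET*) and 25530 (*PDGFRA*) counts, so that counting error at the lowest count was 3.71% for *MET* and 0.855% for *PDGFRA*. The fibroblast label held by its markers, of which 10 of 10 were detected (*PDGFRB* among them), 3 called higher and 1 lower in 4-OHT ATII CM, with a summed level of 41007 to 43882 CPM, the unit that divides out library size, in control ATII CM and 42518 to 43676 CPM in 4-OHT ATII CM. The epithelial markers summed to 94.0 to 101 CPM and 91.1 to 98.0 CPM, mostly *KRT18* and *KRT8*. None of the 7 tested was called (0 also by DESeq2, limma-voom or an unadjusted p under 0.05). Over all libraries *KRT19* had 954 counts, *KRT7* 207 and *EPCAM* 48, whereas *CDH1* had 4 and *SFTPA1*, *NKX2-1* and *ESRP1* had 0. Immune markers summed to at most 1.89 CPM in any library. Over all genes tested, 2.95% were called higher and 2.76% lower in 4-OHT ATII CM. Proliferation markers were lower in 4-OHT ATII CM, with 9 of 10 called lower, a median log2 fold change of -0.47 and a summed level of 273 to 304 CPM against 379 to 411 CPM. The part of this difference in the results below was not tested, and in bulk samples fewer cells of a type and less RNA per cell cannot be told apart. The library of control replicate 2 had the fewest counts and stood apart from the other control libraries on the second principal component. The labels do not say whether replicates came from separate cultures, so p values measure the spread between these libraries, which may be technical.

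In 4-OHT ATII CM, *PDGFD* was 33.4% higher and *PDGFRA* 16.5% higher than in control ATII CM, whereas *FGF5* was 16.3% lower and *MET* 12.8% lower. The other 6 genes, among them the abundant *HGF*, *PDGFRB* and *FGFR1*, did not pass the threshold of an adjusted p of 0.05 (edgeR quasi-likelihood test, Benjamini-Hochberg over 19072 genes). Of the 10 genes 4 were thus called, 2 higher and 2 lower, where 5.72% of all genes tested were called, 2.95% higher and 2.76% lower. Among the 4914 genes at least as abundant as *MET*, the least abundant of the 10, 13.0% were called. The median log2 fold change of the 10 genes was 0.010, beside -0.0020 over all genes tested. The values of the libraries did not overlap between groups in 6 of the 10 genes, namely *PDGFRA*, *PDGFRB*, *PDGFD* and *FGF7* (4 with every library of 4-OHT ATII CM higher) and *FGF5* and *MET* (2 with every such library lower). The groups did not overlap in 22.1% of all genes tested, 11.7% higher and 10.4% lower, and in 35.0% of those at least as abundant as *MET*.

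**Figure D1:**
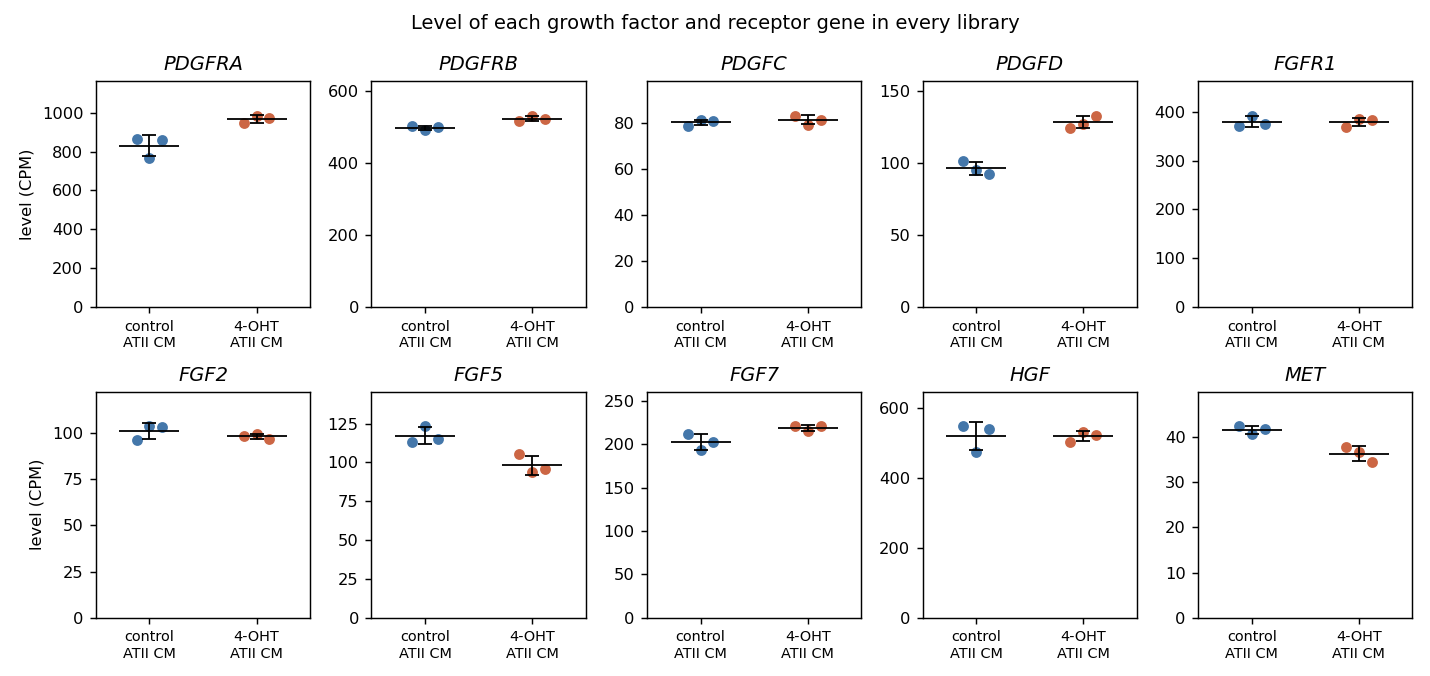
Level of the 10 genes in each library in CPM (vertical axes from 0), with control ATII CM in blue and 4-OHT ATII CM in orange. Points are libraries, horizontal lines are means and bars are SDs (n = 3). Relative to its level, *PDGFD* separates most widely (means of 96.1 and 128 CPM), and the groups lie on top of each other for *HGF* and *FGFR1*.

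**Figure D2:**
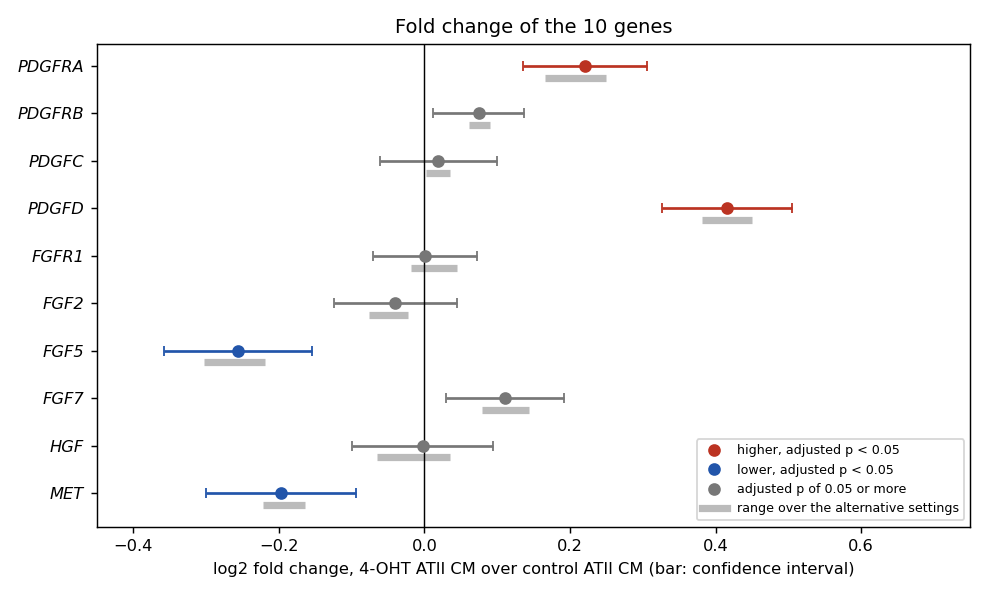
Log2 fold change of each gene in 4-OHT ATII CM over control ATII CM, with its 95% interval (thin bars) and the range of the estimate over 16 alternative settings (grey bars). Red and blue mark genes with an adjusted p under 0.05, and the intervals of *PDGFC*, *FGFR1*, *FGF2* and *HGF* include 0.

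The 4 genes that changed are shown with the 250 bases before their outermost annotated start on GRCh38, to set their sequences beside the expression values, which carry no measurement of the promoters. Capitals mark matches on either strand to the GC box (GGGCGG, which reads CCGCCC on the other strand), the short motif that SP1-type factors bind. The windows are chr4:54228847-54229096 on the plus strand for *PDGFRA*, chr11:104164380-104164629 on the minus strand for *PDGFD*, chr4:80266349-80266598 on the plus strand for *FGF5* and chr7:116671946-116672195 on the plus strand for *MET*, each written 5′ to 3′ in the direction of the gene.
PDGFRA: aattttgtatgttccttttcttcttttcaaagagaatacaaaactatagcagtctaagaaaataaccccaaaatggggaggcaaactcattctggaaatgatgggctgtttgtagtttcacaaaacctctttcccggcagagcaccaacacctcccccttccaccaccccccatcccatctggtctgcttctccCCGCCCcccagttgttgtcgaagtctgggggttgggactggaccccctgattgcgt
PDGFD: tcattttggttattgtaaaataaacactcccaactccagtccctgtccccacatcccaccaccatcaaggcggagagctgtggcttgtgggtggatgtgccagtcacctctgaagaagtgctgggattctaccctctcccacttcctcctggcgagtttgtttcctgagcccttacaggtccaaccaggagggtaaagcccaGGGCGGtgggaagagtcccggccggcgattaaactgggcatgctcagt
FGF5: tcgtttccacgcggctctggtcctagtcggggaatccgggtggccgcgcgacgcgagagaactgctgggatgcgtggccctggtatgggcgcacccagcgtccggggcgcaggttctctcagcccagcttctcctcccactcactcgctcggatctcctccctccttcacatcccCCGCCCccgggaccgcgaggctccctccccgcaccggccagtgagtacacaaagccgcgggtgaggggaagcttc
MET: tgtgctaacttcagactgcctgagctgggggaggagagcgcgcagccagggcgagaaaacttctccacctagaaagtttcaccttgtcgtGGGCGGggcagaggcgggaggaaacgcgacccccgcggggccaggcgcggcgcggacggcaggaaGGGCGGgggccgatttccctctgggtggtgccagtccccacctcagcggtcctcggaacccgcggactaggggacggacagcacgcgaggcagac
Each of the 4 windows held a GC box, 2 of them in *MET* and 1 in each of the others, and 47.7% of 18959 genes had at least 1 in a window of the same length. The matches in *PDGFRA*, *PDGFD* and *FGF5* began at -56, -48 and -75 from the start, and those in *MET* at -160 and -95. No match on either strand was found in these 4 windows to TATAAA, the box bound by TBP, which 8.47% of genes held, to the AP-1 site TGANTCA (4.95%), to the cAMP response element TGACGTCA (1.67%), to the forkhead site TGTTTAC (2.54%) or to the E-box CACGTG (6.78%). The GC content was 48.8% for *PDGFRA* and 55.2% for *PDGFD*, which rose, and 68.8% for *FGF5* and 68.4% for *MET*, which fell, around a median of 59.2% over all genes searched. The windows of the 6 genes that were not called ranged from 30.4% (*FGF7*) to 79.2% (*PDGFC*), and held 1 GC box in *PDGFRB*, 7 in *PDGFC*, 4 in *FGF2* and none in *FGFR1*, *FGF7* and *HGF*. The GC contents are a description and carry no test.

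*PDGFRA*, the receptor that PDGFC binds and a marker of lung mesenchyme, was the most abundant of the 10 genes and rose in 4-OHT ATII CM. Its gene lies at chr4:54229097-54298247. The 3 control libraries had 867, 766 and 860 CPM and the 3 libraries of 4-OHT ATII CM had 947, 986 and 971 CPM. Every library of 4-OHT ATII CM was above every control library, and control replicate 2 was the lowest of all. The mean went from 831 ± 56.0 CPM to 968 ± 19.5 CPM (SD, n = 3), a log2 fold change of 0.22 with SE 0.040 and a 95% interval of 9.81% to 23.6% (edgeR quasi-likelihood, Benjamini-Hochberg adjusted p = 0.00343). Without control replicate 2 the log2 fold change was 0.17, with an adjusted p of 0.000227 in the same test. The exons of *PDGFRA* share 1533 bases on the same strand with a readthrough gene that had 0 counts in every library.

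*PDGFRB*, the receptor for PDGFD and PDGFB, lies at chr5:150113837-150155872 and was the second most abundant of the 10 genes per length. The control libraries had 502, 490.3 and 499 CPM and those of 4-OHT ATII CM 515, 532 and 522 CPM. The groups did not overlap, but the difference was small, with a log2 fold change of 0.074 (SE 0.029, 95% interval 0.827% to 9.96% higher). Its unadjusted p of 0.0227 became 0.185 after Benjamini-Hochberg adjustment in edgeR, and *PDGFRB* was called in 0 of 16 alternatives.

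*PDGFD*, a PDGF ligand that activates PDGFRB once the urokinase-type protease has cut it, showed the largest log2 fold change and the smallest p of the 10 genes, though not the largest difference in CPM, ranking 33 among all genes tested by p. Its gene lies at chr11:103907186-104164379. Control libraries had 101, 95.0 and 92.5 CPM, and libraries of 4-OHT ATII CM had 124, 127 and 133 CPM. The lowest library of 4-OHT ATII CM was well above the highest control library. The mean went from 96.1 ± 4.33 to 128 ± 4.25 CPM (SD, n = 3), a log2 fold change of 0.42 with SE 0.042 and a 95% interval of 25.3% to 41.9% (edgeR quasi-likelihood, Benjamini-Hochberg adjusted p = 2.9e-05). Without any 1 of the 6 libraries, the log2 fold change of *PDGFD* stayed between 0.38 and 0.45.

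*PDGFC*, the related ligand of PDGFRA that tissue plasminogen activator cuts, did not follow *PDGFD*. It lies at chr4:156760454-156971394. Control libraries had 78.9, 81.2 and 80.8 CPM, those of 4-OHT ATII CM had 83.3, 79.4 and 81.4 CPM, and the groups overlapped. Its log2 fold change was 0.019 with SE 0.038, and the 95% interval of the difference ran from -4.15% to 7.13% (edgeR adjusted p = 0.864).

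Among the FGF genes the fall of *FGF5* was the difference that passed the test. *FGF5*, a secreted FGF best known for ending the growth phase of hair follicles, lies at chr4:80266599-80336680. Control libraries had 113, 123 and 115 CPM and libraries of 4-OHT ATII CM had 105, 93.5 and 95.6 CPM. Every library of 4-OHT ATII CM was below every control library, with control replicate 2 the highest. The mean fell from 117 ± 5.42 to 98.1 ± 6.21 CPM (SD, n = 3), a log2 fold change of -0.26 with SE 0.048 and a 95% interval from -22.0% to -10.1% (edgeR quasi-likelihood, Benjamini-Hochberg adjusted p = 0.00413). Without control replicate 2 it was -0.22 (adjusted p = 0.00287). Stretches of at most 492 bases of *FGF5* transcripts are shared with transcripts of other genes at 90.04% to 95.3% identity. The most abundant of these were *PRKDC*, with 14121 counts over the 6 libraries, and *FTO*, with 7403, and how the counting treated reads that map to several places is not given in the sources used here.

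*FGF7*, the keratinocyte growth factor that fibroblasts send to epithelial cells, lies at chr15:49423096-49488775. Control libraries had 212, 193 and 202 CPM and libraries of 4-OHT ATII CM had 221, 215 and 221 CPM. The groups did not overlap, but the highest control library, at 212 CPM, lay close to the lowest library of 4-OHT ATII CM. The log2 fold change of 0.11 (SE 0.038, 95% interval 2.11% to 14.2% higher) had an unadjusted p of 0.0104 and did not pass after adjustment (edgeR, Benjamini-Hochberg adjusted p = 0.116). Stretches of 303 to 317 bases of *FGF7* transcripts are shared with 4 other genes, *FGF7P3* among them, at 96.7% to 98.4% identity, and each of those had 0 counts.

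*FGF2*, the basic FGF that fibroblasts make and respond to, lies at chr4:122826708-122898236. Its control libraries had 96.4, 104 and 103 CPM and those of 4-OHT ATII CM had 98.5, 99.8 and 97.0 CPM, with overlap between the groups. Its estimated difference was -0.040 on the log2 scale with SE 0.040, and its 95% interval ran from -8.24% to 3.11% (edgeR adjusted p = 0.683). Exons of *FGF2* share 804 bases, 11.9% of their length, with the antisense partner *NUDT6*, which had 45 to 90 counts in a library. Whether the counting used strand is not given in the sources used here, so reads in the shared bases cannot be told apart. The exons of *FGFR1*, *PDGFD* and *FGF5* overlap those of other genes over at most 4.52% of their length.

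*FGFR1*, the main FGF receptor of fibroblasts, lies on chromosome 8 and had control libraries at 371, 392 and 375 CPM and libraries of 4-OHT ATII CM at 369.8, 385 and 384 CPM. Libraries of both groups lay in the same range, and the means were 379 ± 11.5 and 379.6 ± 8.48 CPM (SD, n = 3). The estimated log2 difference was 0.00093 with SE 0.033, and its 95% interval ran from -4.74% to 5.11% (edgeR adjusted p = 0.995).

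Of *HGF* and *MET*, only *MET* was called. *HGF*, the scatter factor that mesenchymal cells supply to MET on epithelium, lies at chr7:81699008-81770438. Its control libraries had 547, 472 and 538 CPM and those of 4-OHT ATII CM had 503, 530.0 and 523 CPM. Control replicate 2 was the lowest of all libraries, the other 2 control libraries were the highest, and the groups overlapped. Both means were 519 CPM, with an SD of 40.8 in control ATII CM and 14.1 in 4-OHT ATII CM, and the 95% interval of the difference ran from -6.64% to 6.78% (edgeR adjusted p = 0.991). Without control replicate 2 the log2 fold change was -0.065, with an adjusted p of 0.200 by edgeR.

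*MET*, the HGF receptor, was the least abundant of the 10 genes and fell in 4-OHT ATII CM. It lies at chr7:116672390-116798386. Control libraries had 42.4, 40.7 and 41.7 CPM and libraries of 4-OHT ATII CM had 37.8, 36.6 and 34.5 CPM. The 3 control libraries were close to each other, and every library of 4-OHT ATII CM was below them. The mean fell from 41.6 ± 0.856 to 36.3 ± 1.66 CPM (SD, n = 3), a log2 fold change of -0.20 with SE 0.048 and a 95% interval from -18.8% to -6.35% (edgeR quasi-likelihood, Benjamini-Hochberg adjusted p = 0.0238). The direction of *MET* held in 16 of 16 alternatives and the call in 11. The call was lost with libraries thinned to the smallest total (adjusted p = 0.0911), and on leaving out control replicate 1 (0.0802) or 3 (0.0754), or replicate 2 (0.0752) or 3 (0.150) of 4-OHT ATII CM, within a range of 0.00854 to 0.150 over the alternatives. *PDGFRA*, *PDGFD* and *FGF5* were called in 16 of 16.

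Per length, receptors for PDGF led the 10 genes. In control ATII CM the levels in CPM per kilobase of exon (RPKM) were 85.4 ± 5.75 for *PDGFRA*, 69.6 ± 0.820 for *PDGFRB*, 52.9 ± 4.16 for *HGF*, 30.4 ± 1.44 for *FGF7*, 27.4 ± 0.828 for *FGFR1*, 22.5 ± 1.02 for *PDGFD*, 19.5 ± 0.903 for *FGF5*, 14.9 ± 0.612 for *FGF2*, 14.4 ± 0.225 for *PDGFC* and 5.90 ± 0.122 for *MET* (SD, n = 3). Of the neighbours in this order, *FGF2* and *PDGFC* overlapped between libraries and the other pairs did not. In 4-OHT ATII CM the place of *PDGFD* was different, at 30.04 RPKM (29.2 to 31.1) above *FGFR1* at 27.4 RPKM (26.7 to 27.8). *PDGFC* at 14.55 RPKM and *FGF2* at 14.53 RPKM also changed places there, with overlap between libraries. Lengths are those of all annotated exons merged, 13842 bases for *FGFR1* and 4266 bases for *PDGFD*, so a gene with many alternative exons can be placed too low.

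**Figure D3:**
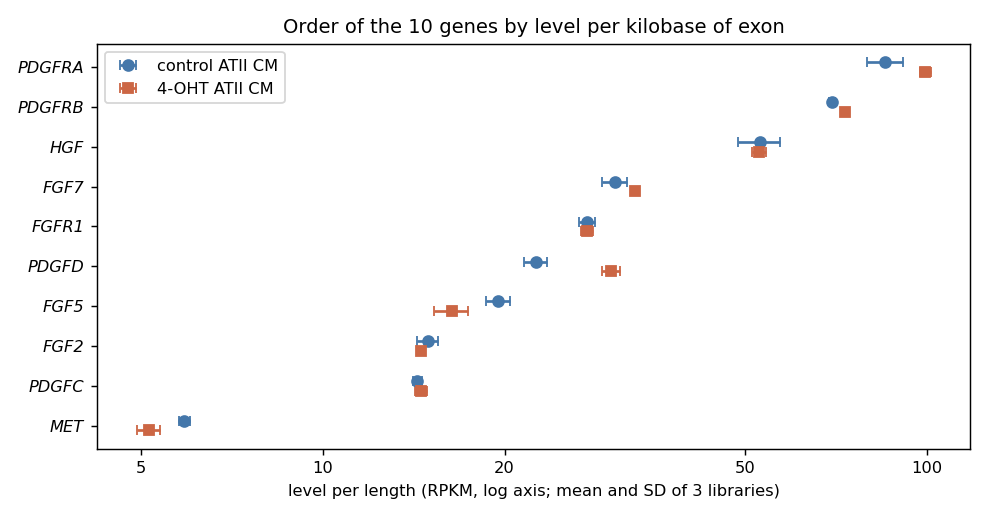
Level per length of the 10 genes in RPKM on a log axis, ordered by the control level, as mean and SD of 3 libraries in control ATII CM (blue circles) and 4-OHT ATII CM (orange squares). *PDGFRA* is highest and *MET* lowest in both groups, and *PDGFD* passes *FGFR1* in 4-OHT ATII CM.

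Ratios of a pair of genes within a library do not depend on how libraries are scaled, and they set the members of the PDGF, FGF and HGF families against each other. The ratio of *PDGFC* to *PDGFD* per length was 0.596, 0.652 and 0.667 in the control libraries and 0.511, 0.476 and 0.468 in those of 4-OHT ATII CM. Every ratio in 4-OHT ATII CM was below every control ratio, and the mean went from 0.638 to 0.485. *FGF5* against *FGF7* was lower in the same way, with means of 0.644 ± 0.060 and 0.497 ± 0.027 (SD, n = 3). *PDGFRA* against *PDGFRB* went from 1.23 ± 0.069 to 1.36 ± 0.0083, and *HGF* against *MET* from 8.95 ± 0.537 to 10.3 ± 0.668, also without overlap. *FGF2* against *FGF7* went from 0.492 to 0.442 and its groups overlapped (exact two-sided permutation p = 0.2, adjusted over the 5 ratios 0.2). For the other 4 ratios the exact two-sided permutation p was 0.1, the smallest that 3 libraries against 3 can give, and 0.125 after adjustment over 5 ratios, so this test cannot pass 0.05 here. Each of these 4 pairs holds a gene called above, and *FGF2* and *FGF7* were not called, so the ratios are not separate evidence. No share was computed over other pairs of genes, and the groups did not overlap in 22.1% of all single genes tested.

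**Figure D4:**
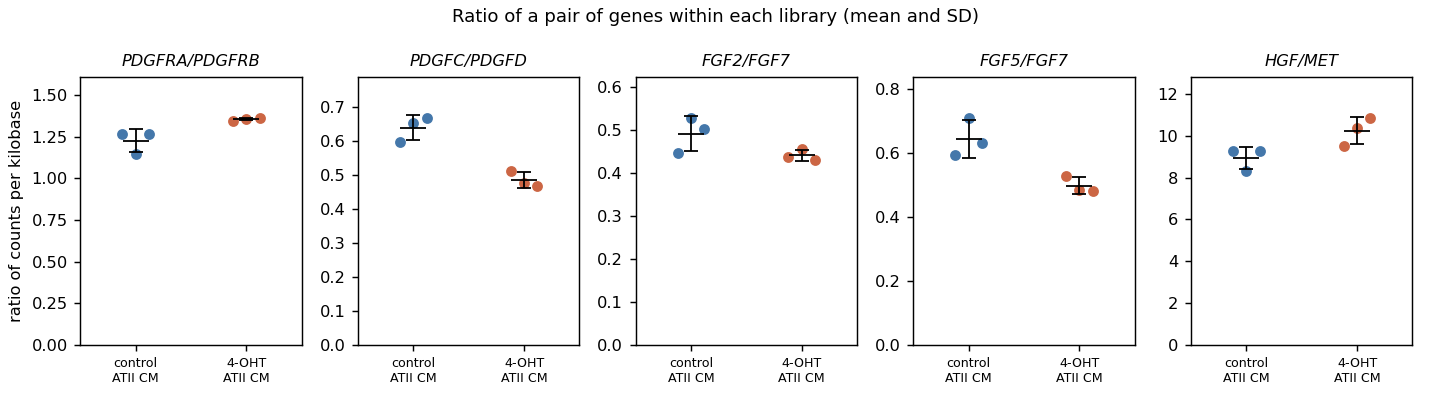
Ratio of counts per kilobase of 5 pairs of genes within each library, with control ATII CM in blue and 4-OHT ATII CM in orange, and bars for the mean and SD (n = 3). The groups are apart for 4 of the 5 pairs, each of which holds a called gene, and overlap for *FGF2* against *FGF7*.

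The other genes of these pathways were read from 7 lists of 87 genes, of which 70 passed the count filter, 4 were called higher and 5 lower, with a median log2 fold change of -0.0027. Over all genes tested 5.72% were called, and 13.0% of those at least as abundant as *MET*. The other genes of the PDGF, FGF and HGF families and of growth factor processing made up 4 lists of 41 genes, of which 24 were tested and 0 called by edgeR, DESeq2 or limma-voom, with 2 at an unadjusted p under 0.05. In the PDGF list, *PDGFRL* was highest per length, and *PDGFA*, a ligand of PDGFRA, had control values of 7.07, 8.12 and 7.99 CPM and 6.26, 7.50 and 7.65 CPM in 4-OHT ATII CM (log2 fold change -0.11, edgeR adjusted p = 0.690). Of the 19 other FGF genes, 4 of which (*FGF11* to *FGF14*) encode intracellular factors and not secreted ligands, 8 were at 0 counts, and *FGF9* at 2.55 RPKM and *FGF1* at 2.40 RPKM led the rest in control ATII CM. *FGFR2*, the receptor through which FGF7 acts on epithelium, was at 0 counts in every library. *FGFRL1*, an FGF receptor without a kinase domain, led its list at 15.5 RPKM. *PLAU*, the urokinase-type activator, and *PLAT*, the tissue-type activator, are proteases that can cut HGF or PDGF precursors, and both were abundant. *PLAU* went from 645 to 663 CPM (log2 fold change 0.040, edgeR adjusted p = 0.625) and *PLAT* from 401 to 420 CPM (0.067, adjusted p = 0.349), and neither was called.

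Of the 9 called genes of the pathway lists, 7 lay among feedback inhibitors and early targets, where 2 of 21 were higher and 5 lower, with a median of -0.068, beside 2.95% higher and 2.76% lower and a median of -0.0020 over all genes tested. *SPRY1*, a Sprouty inhibitor of receptor tyrosine kinase signaling, rose from control values of 16.6, 16.3 and 18.7 CPM to 22.2, 25.2 and 24.4 CPM (log2 fold change 0.47, SE 0.073, edgeR Benjamini-Hochberg adjusted p = 0.000955). *SPRY2*, its relative, had a log2 fold change of -0.17 and was not called (edgeR adjusted p = 0.170). *DUSP5* and *DUSP6*, phosphatases that switch off ERK, fell with log2 fold changes of -0.33 and -0.19 (edgeR adjusted p = 0.00928 and 0.0231). Of the early targets *FOSL1*, an AP-1 subunit, fell from 88.1 to 64.6 CPM (-0.45, edgeR adjusted p = 2.0e-05), *CCND1*, the cyclin D1 gene and highest of the list per length, fell from 841 to 757 CPM (-0.15, adjusted p = 0.00332), and *MYC* fell with -0.18 (adjusted p = 0.0379). *PHLDA1*, also induced by ERK, rose from 308 to 377 CPM (0.29, edgeR adjusted p = 3.7e-05). The list thus held genes called in both directions, and the proliferation markers whose values are given above moved in the same comparison.

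Of 5 co-receptors and partners 1 was called, *FLRT3*, a membrane partner of FGF receptors, with a log2 fold change of 0.28 (edgeR adjusted p = 0.0374), and *SDC4*, a heparan sulfate carrier that binds FGFs and highest of the list per length, had -0.012 (adjusted p = 0.915). Of 20 adaptors 1 was called, *STAT3*, a transcription factor that receptor kinases activate, with 0.15 (edgeR adjusted p = 0.0118), where 5.72% of all genes tested were called. *SHC1*, the adaptor highest per length, had 0.042 (adjusted p = 0.598). *FLRT3* lost its call in 8 of 16 alternatives (adjusted p over all 16 from 0.0136 to 0.143), *MYC* in 9 (0.0230 to 0.126), *DUSP6* in 4 (up to 0.105), *STAT3* in 3 (up to 0.0875) and *DUSP5* in 1 (up to 0.0672), and each kept its direction. *SPRY1*, *PHLDA1*, *FOSL1* and *CCND1* were called in 16 of 16.

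**Figure D5:**
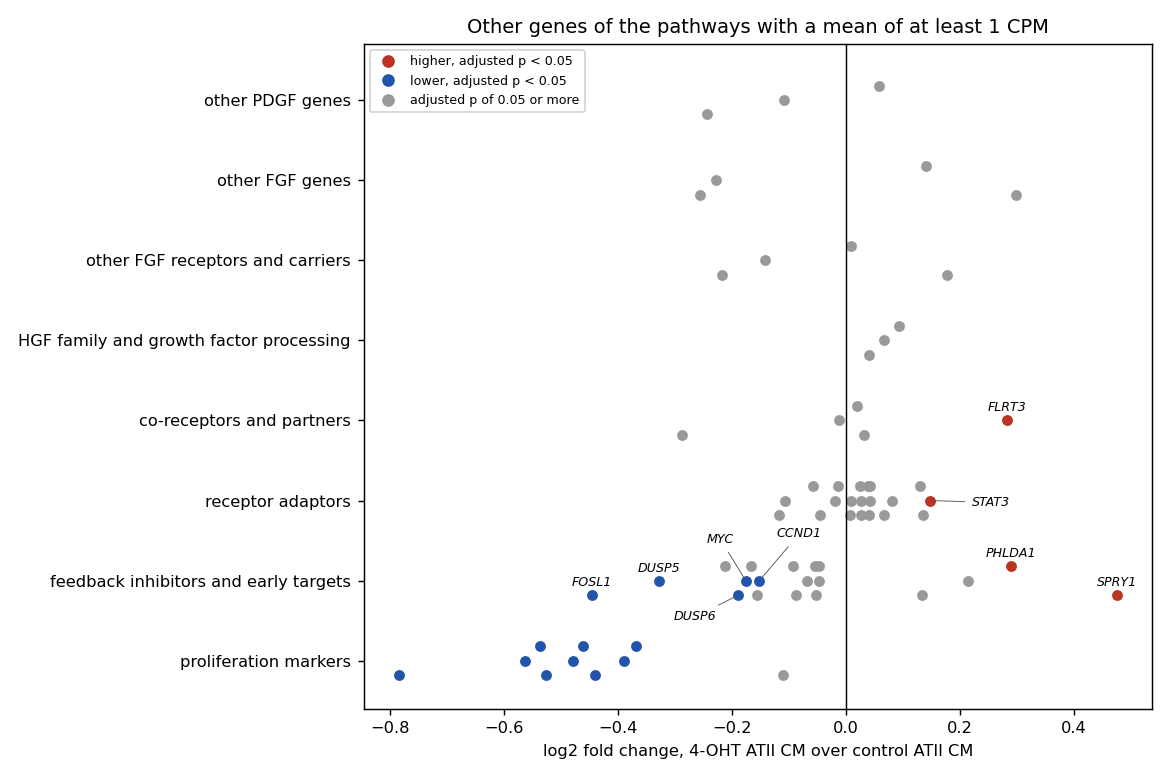
Log2 fold change in 4-OHT ATII CM over control ATII CM of the other pathway genes and of proliferation markers with a mean of at least 1 CPM, 1 point per gene, spread vertically within a list for legibility. Red and blue mark genes with an adjusted p under 0.05 by edgeR, and in the feedback and early target list 2 genes lie to the right and 5 to the left.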

How the data were processed

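RNA-Seq counts of MRC5 cells in control ATII CM (3 libraries) and 4-OHT ATII CM (3 libraries) were used, with groups taken from the sample labels. The authors trimmed reads with Trim Galore, checked them with FastQC and MultiQC, mapped them to GRCh38 with HISAT2 2.1.0 and counted them per gene with featureCounts 1.6.5. They deposited raw counts, with the length in bases of the merged exons of each gene as another deposited column. The annotation release, the strand setting and the treatment of reads that map to several places are not given in the sources used here. The table has 58721 lines for 58676 identifiers, and counts of 45 identifiers listed on both X and Y were added.

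Genes with at least 10 counts over the 6 libraries were tested by the edgeR 4.0.16 quasi-likelihood test (R 4.3.3, TMM factors, group as the only term), with Benjamini-Hochberg adjustment over all 19072 and a threshold of 0.05. CPM values use TMM-scaled library sizes, summed marker levels use library totals, and RPKM divides CPM by the deposited length. The SE of a fold change was taken from its F statistic. Ratios were compared by exact two-sided permutation tests (scipy 1.17.1, Python 3.11.15). DESeq2 1.42.0, limma-voom (limma 3.58.1), RLE and upper quartile factors, other filters, a replicate block, an offset for GC content and length, thinning and leaving out each library were alternatives. Scripts were tested on simulated data. Names came from GENCODE release 44, coordinates from the deposited table, and promoter windows from the GRCh38 sequence before the outermost start in either. Shared exons came from the deposited coordinates and similar transcripts from minimap2 2.31.

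The 10 genes and the lists were chosen with earlier results of these data known, so their calls are not independent evidence. Named are the 10 genes, the called genes of the 7 pathway lists, the gene of each list with the highest level per length, *PLAT*, *PLAU*, *PDGFA* and *SPRY2*, the most abundant markers of other cell types, and the 3 genes most like the member with the smallest p. Other genes, namely *FGF1*, *FGFR2*, *NUDT6*, *FGF7P3*, *PRKDC*, *FTO*, *KRT19*, *KRT7*, *EPCAM* and markers at or near 0, were named after their values were seen. *FGF11* to *FGF14* were named because they encode intracellular factors. Each library was counted as 1 replicate. Replicate pairs differed by more than sampling noise (a chi-square over its degrees of freedom between 2.04 and 5.56), which does not show whether they came from separate cultures.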

Additional observations from a re-analysis of the deposited data

How the results depend on the processing

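*PDGFRA*, *PDGFD* and *FGF5* kept their direction and call in 16 of 16 alternatives, and *FGF7* passed in 1, with genes of 1 count or more kept (adjusted p = 0.0336, against 0.0336 to 0.342 over all). Of the 10 genes 2 were called higher throughout except for 3 in that setting, and 1 in place of 2 were lower with thinned libraries and, without 1 library, 1 to 2. The estimates of *FGFR1* and *HGF*, which were not called, crossed 0. *FGFR1* had -0.00096 with DESeq2, -0.0012 with RLE factors, -0.0020 with filterByExpr and -0.018 to 0.026 without 1 library, and *HGF* had 0.0067 with genes of 1 count or more kept and -0.065 to 0.035 without 1 library. Without 1 library *FGF2* had -0.076 to -0.022 and *PDGFC* 0.0039 to 0.035, neither called. The median of the 10 genes was 0.0027 to 0.026 without 1 library. Over all genes, 875 were called higher with genes of 1 count or more kept, and without 1 library 289 to 696 were higher and 244 to 834 lower (563 and 527 with all libraries). In the pathway lists, 2 to 4 were higher and 3 to 7 lower without 1 library. The 5 ratios kept their direction in 8 of 8 alternatives each. Without 1 library, the log2 difference was -0.22 to -0.099 for *FGF2* against *FGF7* and 0.10 to 0.17 for *PDGFRA* against *PDGFRB*. It was -0.44 to -0.36 for *PDGFC* against *PDGFD*, -0.43 to -0.30 for *FGF5* against *FGF7* and 0.15 to 0.25 for *HGF* against *MET*. The highest of the counts without 1 library, 696 and 834 over all genes and 7 lower in the pathway lists, came without control replicate 2. The cause of these differences was not tested.

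No clear pairing of samples by replicate number was seen, though so few libraries cannot exclude it. Deviations from the group means of same-numbered libraries had correlations of 0.0346, -0.00423 and 0.00509 over 12000 genes. With the replicate block, 2 of the 10 genes were higher and 2 lower, 502 and 483 over all genes, 3 and 4 in the pathway lists, the log2 fold change of *HGF* was 0.00058 and the median 0.010. With the block and the GC and length offset together the median was 0.023. Not every library correlated best with the one of its own number.

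Of the 10 genes, *MET* had the fewest counts, with 726 in its smallest library.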

Other observations

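*TEK*, the angiopoietin receptor gene that serves as an endothelial marker, was expressed in these fibroblasts and rose in 4-OHT ATII CM. Its control libraries had 138, 120 and 128 CPM and those of 4-OHT ATII CM had 166, 162 and 171 CPM, and the groups did not overlap (log2 fold change 0.37, SE 0.046, edgeR Benjamini-Hochberg adjusted p = 0.000162). The defining endothelial markers *PECAM1* and *CDH5* were at 0 counts in every library, and the endothelial list without *TEK* summed to 0.328 to 0.565 CPM in the control libraries and 0.229 to 0.517 CPM in the others. *CD14*, the most abundant of the immune markers, had means of 0.766 and 1.48 CPM in the same order and was not called (edgeR adjusted p = 0.0597).

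Of 9201 genes with a mean of at least 10 CPM, the 3 whose log2 CPM deviations were closest to those of *PDGFD* over the 6 libraries were *ITGB3* (root mean square difference 0.036), the integrin beta 3 subunit, *DEPP1* (0.038), a FOXO-regulated gene, and *IL1R1* (0.048), the interleukin 1 receptor. *IL1R1* had 208, 194 and 203 CPM in the control libraries and 274, 273 and 271 CPM in those of 4-OHT ATII CM, and *ITGB3* had 25.3, 25.3 and 24.4 CPM and 31.6, 33.0 and 33.2 CPM. As they were picked for their likeness to *PDGFD*, whose difference sets the likeness, these values are a description with no test.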
